A study of Homo sapiens with 2 samples.

Results

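Nuclear pore proteins, importins, exportins and mRNA export factors were followed in the kidney cancer cell line ACHN, which derives from a renal cell carcinoma. Genes were chosen by name, as nucleoporins (NUP), importins (KPNA, KPNB1, IPO, TNPO), exportins (XPO), Ran-binding proteins (RANBP), ALYREF, NXF1, NXT1 and the numbered THOC subunits, with read-through names left out. This gave 60 of the 12014 genes listed. Lentiviral shRNA, either against KIAA1429 (shKIAA1429), a scaffold of the complex that writes m6A onto mRNA, or as a control (shNC), had been brought into the cells, and stable cells were selected with puromycin. The deposited labels call the first group a knockout, whereas the methods describe an shRNA knockdown, and which KIAA1429 shRNA was sequenced is not given in the sources used here. Sequencing was of poly(A)-selected RNA with the strand kept, 1 library per group. There were therefore no replicates, no difference has an error and no test was run. KIAA1429, listed as VIRMA, stood at 3.92 FPKM in the control and at 3.22 FPKM, or 82.1% of that, in the shKIAA1429 library. The library labelled shKIAA1429 thus kept most of the targeted mRNA.

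FPKM counts the fragments of a gene per kilobase of its length and per 1000000 fragments of the library. Read counts cannot be recovered from it, so depth is unknown here and no interval for counting error is given. The 13 mitochondrial genes made up 42.2% of the summed FPKM with shNC and 34.6% with shKIAA1429. Of 11 markers of a renal epithelial line 8 were listed, among them PAX8 at 64.7 and 104 FPKM. Of 11 markers of blood, endothelial or connective tissue cells 4 were listed, summing to 9.55 and 4.81 FPKM. RNA was taken from whole cultures, so less RNA per cell and fewer cells in a given state cannot be told apart.

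The nuclear pore is a ring-shaped channel through the nuclear envelope, built from scaffold nucleoporins around a central gate of nucleoporins rich in phenylalanine-glycine (FG) repeats. Importins and exportins are receptors that bind cargo, pass the FG gate and load or release the cargo through the small GTPase Ran. Most mRNA leaves by another route, in which the THO complex and the adaptor ALYREF hand the transcript to the receptor NXF1-NXT1. Growing cells depend on all of these routes for histones, ribosomal proteins, tRNA and mRNA.

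On the deposited scale the nuclear transport genes differed little between the libraries, and this depended on the scaling, as given below. Log2 changes compare FPKM + 1 in the shKIAA1429 library with FPKM + 1 in the shNC library, a scale that understates the change of low genes, and cover genes whose mean of both libraries reached 1 FPKM. Of the 60 genes, 58 passed this filter, and KPNA5 and RANBP17 did not. The study's methods name a limit of 1.5 on the log2 fold change together with a P value limit, using DESeq2. Here only the size was used, on the scale of FPKM + 1 and without a test. At 1.5, 0 of the 58 were higher, against 0.392% of the 10708 genes tested, and 0 were lower, against 0.252%. With shares this small over all genes, a count of 0 says little about these genes. At a limit of 0.5, 3 were higher (5.17%), NUP58, KPNA4 and NXT1, where 9.92% of all genes tested were. Only IPO4 was lower by more than 0.5, where 6.12% of all genes tested were. The other 54 lay within 0.5 of no change (93.1%, against 84.0% of all genes tested), and 20 of the 58 lay within 0.1 (34.5%, against 24.9%).

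Most of these small differences pointed upward. Of the 58 genes 46 were higher with shKIAA1429 and 12 were lower, a share of 79.3% against 57.3% of all genes tested. The median log2 change was 0.13, and that of all genes tested was 0.058. The split depended on the scaling, since setting the FPKM of either library to sum to 1000000 gave 53 higher and 5 lower genes with 74.6% of all genes higher. With that scaling 19 of the 58 were higher by more than 0.5, a larger share than the 23.9% of all genes tested. Centring on the median of all genes gave 36 higher and 22 lower. The transcripts of these genes are long, with a median of 5018.5 bases against 3368 bases, and have a GC content of 44.9% against 48.5%. Across the 10648 genes tested with an annotated transcript, the log2 change had a Spearman correlation of -0.30 with GC content and 0.19 with length. Across the 58 genes these were -0.26 and 0.18, and genes of 1 pair of libraries are not independent. With the median trend of GC content and length removed, a setting chosen after seeing the data, 34 genes were higher, 23 were lower and 1 was at 0, and 49.8% of all genes were higher.

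**Figure D1:**
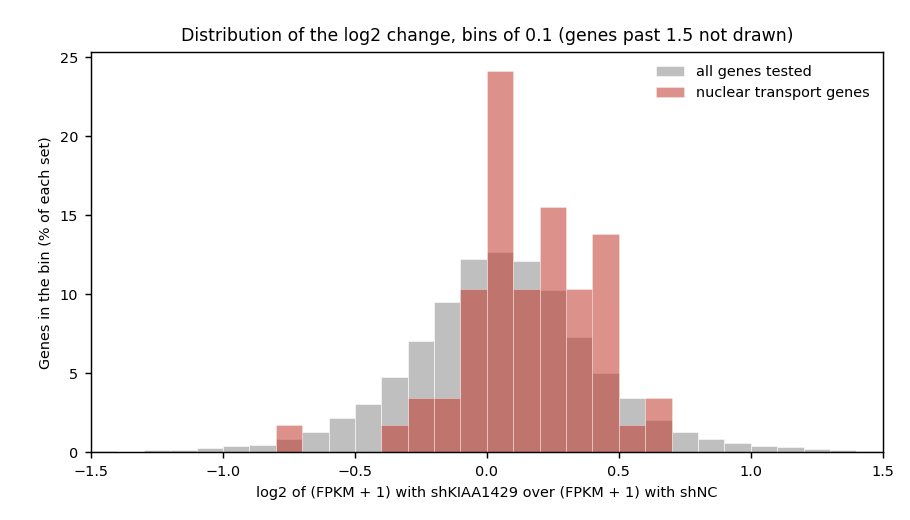
Percentage of genes in bins of 0.1 of the log2 change between shKIAA1429 and shNC, for the 58 nuclear transport genes (red) and the 10708 genes tested (grey, genes past 1.5 are not drawn). The nuclear transport genes pile up just above 0 and thin out beyond 0.5 on either side, with IPO4 alone on the far left.

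The levels spanned a wide range and kept nearly the same order in both libraries. With shNC the highest was XPOT at 73.4 FPKM, followed by KPNA2 at 70.4 FPKM and KPNB1 at 53.1 FPKM. With shKIAA1429 these were at 78.8, 60.3 and 63.8 FPKM, so KPNB1 and KPNA2 changed places. XPOT carries tRNA out of the nucleus, and KPNA2 and KPNB1 form an importin alpha and beta pair for cargo with a classical import signal. In either library 40 of the 60 genes lay between 5 and 20 FPKM. The lowest was RANBP17, at 0.415 and 0.801 FPKM. The 58 genes had a median of 9.68 FPKM in the control and of 11.4 FPKM after shKIAA1429, and that of all genes tested was 5.69 and 6.10 FPKM.

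**Figure D2:**
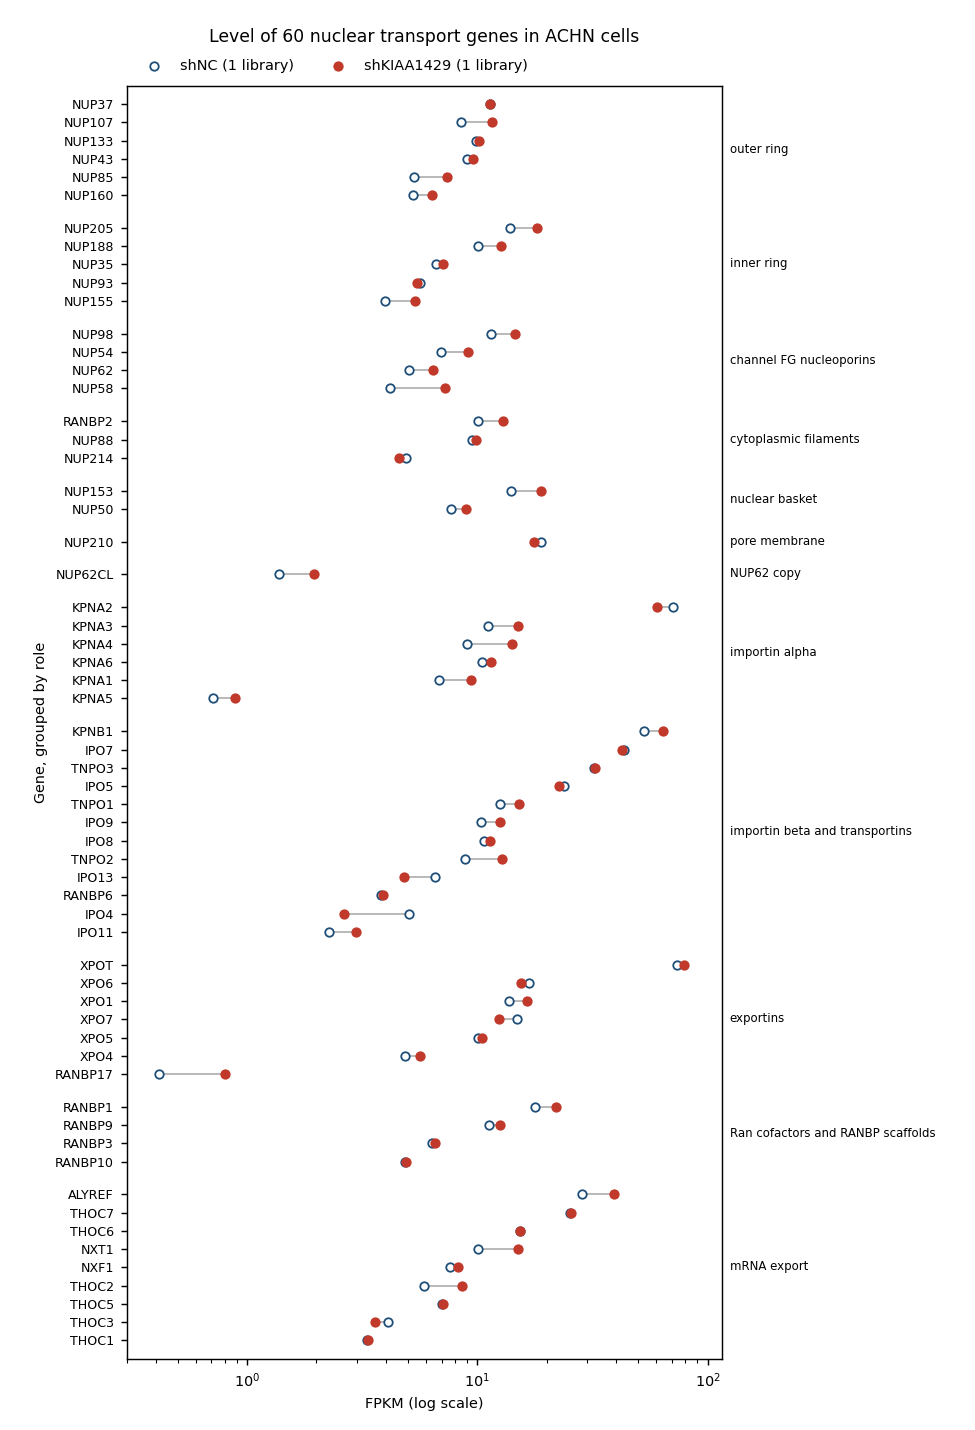
FPKM on a log axis of each of the 60 nuclear transport genes in the shNC library (open blue) and the shKIAA1429 library (filled red), grouped by role, 1 library per group. The paired points lie close together for most genes, and the widest gaps besides the low gene RANBP17 are those of IPO4, where the red point is left of the blue, and NUP58.

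NUP58 encodes an FG nucleoporin of the central channel, where it stands with NUP54 and NUP62. It was at 4.17 FPKM with shNC and 7.21 FPKM with shKIAA1429, a log2 change of 0.67. Of all genes tested 4.82% had a higher change. Its longest coding transcript has a GC content of 36.4%, and with the trend of GC content and length removed its change was 0.38. KPNA4, an importin alpha, was at 9.01 and 14.2 FPKM, a change of 0.60 that became 0.38 with the trend removed. NXT1, the small partner of the mRNA export receptor NXF1, was at 10.04 FPKM (shNC) and 15.0 FPKM (shKIAA1429), a change of 0.53. Its transcript is short and rich in GC, and its change was 0.61 with the trend removed. With that setting the genes higher by more than 0.5 were NXT1 and ALYREF.

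IPO4, an importin known for the import of histones and ribosomal proteins, was the gene that was lower by the most. It stood at 5.07 FPKM in the control and at 2.63 FPKM after shKIAA1429, a log2 change of -0.74 (-0.68 without the trend), and 2.21% of all genes tested had a lower change. It shares its strand and part of its position with the listed gene AL136295.4, which was higher, at 6.21 and 10.5 FPKM. The sum of both was 11.3 and 13.1 FPKM, a change of 0.20. In GRCh37, the build of the files, IPO4 is at chr14:24649425-24658170 on the minus strand, NUP58 at chr13:25875662-25923938 and NXT1 at chr20:23331373-23335414 on the plus strand, and KPNA4 at chr3:160212783-160283376 on the minus strand. How reads were divided between the overlapping genes was not tested. The other members that overlap a listed gene on the same strand were IPO11, THOC5 and NUP62. Counted separately, 12 of the genes overlap a listed gene on the opposite strand, and whether the counting used the strand is not given in the sources used here.

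Sequences upstream of these genes are shown because they are the genes furthest from no change. The RefSeq table of GRCh38.p14 held the promoter window, 250 bases before to 50 bases after the gene start, for 53 of the 60 genes and not for KPNA4, KPNA5, KPNB1, NUP43, RANBP1, THOC7 and XPO7. NUP58 is at chr13:25301375-25301674 on the plus strand, NXT1 at chr20:23350541-23350840 on the plus strand and IPO4 at chr14:24188767-24189066 on the minus strand. Capitals mark matches on either strand to CACGTG (the E-box of MYC and related factors), CCAAT (the CCAAT box) and CCGGAAGT (an ETS factor motif).
NUP58: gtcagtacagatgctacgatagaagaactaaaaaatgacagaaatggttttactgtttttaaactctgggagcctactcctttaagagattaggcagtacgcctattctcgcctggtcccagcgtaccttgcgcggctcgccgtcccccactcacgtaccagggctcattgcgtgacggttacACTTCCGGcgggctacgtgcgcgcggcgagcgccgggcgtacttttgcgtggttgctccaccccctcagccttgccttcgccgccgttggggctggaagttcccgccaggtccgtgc
NXT1: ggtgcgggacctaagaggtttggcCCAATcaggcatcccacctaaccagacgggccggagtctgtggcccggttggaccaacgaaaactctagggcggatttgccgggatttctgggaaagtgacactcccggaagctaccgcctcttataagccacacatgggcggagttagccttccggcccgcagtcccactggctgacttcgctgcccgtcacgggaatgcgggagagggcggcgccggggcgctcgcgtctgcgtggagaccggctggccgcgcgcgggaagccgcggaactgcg
IPO4: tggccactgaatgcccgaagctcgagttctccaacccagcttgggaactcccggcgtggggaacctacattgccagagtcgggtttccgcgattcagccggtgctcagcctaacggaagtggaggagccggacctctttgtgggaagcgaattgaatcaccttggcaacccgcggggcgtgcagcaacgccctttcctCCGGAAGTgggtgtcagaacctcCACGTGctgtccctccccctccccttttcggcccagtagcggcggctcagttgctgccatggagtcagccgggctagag
The NUP58 window held CCGGAAGT as its reverse complement, the NXT1 window held CCAAT, and the IPO4 window held CCGGAAGT and, closer to the start, CACGTG. No match overlaps another in these windows. A match describes the letters and is not a measured binding site.

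Over the 52 of the 58 genes with a promoter window, 6 held CACGTG (11.5%), against 10.5% of the 8462 genes tested with a window. CCAAT was held by 22 (42.3%, against 36.5%) and CCGGAAGT by 9 (17.3%, against 9.54%). The 6 genes with CACGTG were IPO4, IPO7, KPNA3, NUP188, NUP50 and XPO1. Their median log2 change was 0.21, and that of the members without it was 0.11, while over all genes tested these were 0.067 and 0.059. For the other motifs the medians of the members lay the other way, 0.10 with CCAAT and 0.17 without, and 0.086 with CCGGAAGT and 0.15 without. Over all genes tested the medians were 0.064 with CCAAT and 0.057 without, and 0.095 with CCGGAAGT and 0.055 without. The changes of the 6 genes with CACGTG ran from -0.74 for IPO4 to 0.40 for KPNA3. IPO7 was at -0.029, and the other 3 lay between 0.19 and 0.30. With the trend of GC content and length removed, IPO4, IPO7 and XPO1 were negative, at -0.68, -0.32 and -0.031. NUP50, KPNA3 and NUP188 were then at 0.0041, 0.22 and 0.33. The medians above were taken without that removal.

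The outer ring of the pore, the Y-shaped scaffold that also sits on kinetochores in mitosis, held 6 of the genes, and 5 were higher. NUP107 was at 8.51 FPKM with shNC and 11.6 FPKM with shKIAA1429, a log2 change of 0.41. NUP85 was at 5.31 and 7.35 FPKM, a change of 0.40. NUP160 was at 5.23 and 6.34 FPKM. The other outer ring genes hardly differed, with NUP37, NUP43 and NUP133 between -0.0027 and 0.071. The group median of 0.15 became -0.0086 with the trend of GC content and length removed. NUP85 was then at 0.39, NUP107 at 0.21 and NUP160 at 0.049, while NUP37 was at -0.13, and NUP43 and NUP133 were also below 0. On the deposited scale, subunits of 1 stable complex thus showed unequal differences, with NUP107 and NUP85 about 0.4 above NUP37. With 1 library per group these differences have no error.

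The inner ring, which anchors the pore to the membrane and to the central channel, had a median log2 change of 0.30, and 4 of its 5 genes were higher. The large scaffold proteins NUP205 and NUP188 are distant relatives. NUP205 was at 13.8 and 18.1 FPKM and NUP188 at 10.1 and 12.6 FPKM, so their ratio was close in both libraries, 0.730 and 0.697. NUP155 was at 3.98 and 5.37 FPKM, a change of 0.35. NUP93, which links the ring to the channel, was at 5.63 and 5.49 FPKM, and NUP35 at 6.59 and 7.06 FPKM. With the trend of GC content and length removed the group median was 0.15, NUP155 was at a change of 0.15 and NUP35 at -0.052.

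The 4 channel FG nucleoporins were all higher, and rescaling, centring and removal of the trend left their median between 0.28 and 0.54. Besides NUP58, NUP54 was at 6.98 and 9.15 FPKM, a change of 0.35 that became 0.15 with the trend removed, NUP62 at 5.04 and 6.42 FPKM, and NUP98, which also binds the export factor RAE1, at 11.5 and 14.6 FPKM. Together they summed to 27.7 FPKM in the control and to 37.4 FPKM after shKIAA1429, 1.35 times as high. NUP62CL, a gene related to NUP62, was at 1.37 and 1.94 FPKM.

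On the cytoplasmic side, RANBP2, a giant filament protein with SUMO ligase activity, was at 10.1 FPKM with shNC and 13.0 FPKM with shKIAA1429. NUP214 was at 4.89 and 4.55 FPKM, and its partner NUP88 at 9.48 and 9.92 FPKM. The change of NUP214 was -0.087 as deposited and 0.073 after rescaling, and that of RANBP2 was 0.33 and became 0.11 with the trend removed. RANBP2 has near-identical copies named RGPD, of which RGPD8 was the highest at 2.22 and 2.73 FPKM, so its reads could have been split with them. On the nuclear side, NUP153 was at 14.1 and 19.0 FPKM, a log2 change of 0.41, and NUP50, its partner in importin release, at 7.67 and 8.91 FPKM. With the trend removed their changes were 0.26 and 0.0041. NUP210, which spans the membrane, was at 19.0 and 17.7 FPKM, a change of -0.097 that became 0.079 when each library was rescaled.

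**Figure D3:**
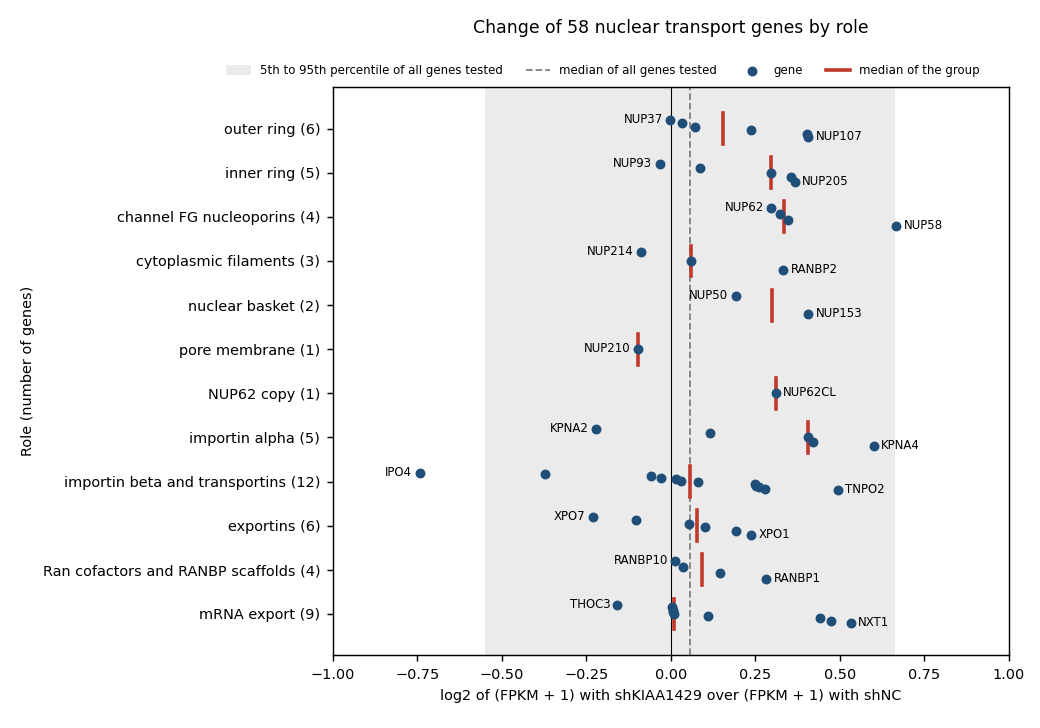
Log2 change between shKIAA1429 and shNC of the 58 nuclear transport genes by role (blue points, 1 gene each; red bars, group medians), with the 5th to 95th percentile of all genes tested in grey and their median as a dashed line. Only IPO4 and NUP58 lie outside the grey band, and the importin alpha and channel groups have the highest medians.

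Among the importin alpha genes, which read the classical import signal and bind KPNB1, the dominant member was lower and the others were higher. KPNA2 was at 70.4 FPKM with shNC and 60.3 FPKM with shKIAA1429, a log2 change of -0.22. It stayed lower under every scaling tried and with the trend removed, with a smallest difference of -0.043 after rescaling. KPNA3, the close relative of KPNA4, was at 11.2 and 15.1 FPKM, a change of 0.40. KPNA1 was at 6.80 and 9.43 FPKM, a change of 0.42, and KPNA6, of the same subfamily, at 10.5 and 11.5 FPKM. With the trend removed the changes of KPNA3 and KPNA1 were 0.22 and 0.23. KPNA5 was at 0.708 and 0.887 FPKM. On the deposited scale the summed level of the family hardly differed, 109 and 111 FPKM, while its makeup did. All listed genes summed to 283046 FPKM with shNC and 249409 FPKM with shKIAA1429. The near-equal family sum thus depends on the scaling, and the shares within the family do not. KPNA2 made up 64.8% of the family sum with shNC and 54.1% with shKIAA1429. KPNA4 went from 8.30% to 12.7% and KPNA3 from 10.3% to 13.6%.

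The importin beta and transportin group held 12 genes, of which 8 were higher, and its median of 0.055 changed sign after centring (-0.0027) and with the trend removed (-0.094). KPNB1, the partner of importin alpha, was at 53.1 and 63.8 FPKM, a log2 change of 0.26. TNPO2 was at 8.84 and 12.9 FPKM, a change of 0.49, and its close relative TNPO1, which imports many RNA-binding proteins, at 12.6 and 15.1 FPKM. TNPO3, the importer of splicing factors of the SR family, was nearly equal at 32.1 and 32.4 FPKM. IPO7 was at 43.3 and 42.5 FPKM and its relative IPO8 at 10.7 and 11.3 FPKM. IPO5 was at 23.7 and 22.7 FPKM, and RANBP6, related to it, at 3.80 and 3.90 FPKM. IPO9, a histone importer, was at 10.4 and 12.6 FPKM. IPO11 was at 2.26 and 2.96 FPKM. IPO13, which moves cargo in both directions, was at 6.53 and 4.81 FPKM, a change of -0.37 and the next lowest after IPO4. With the trend removed TNPO1, TNPO3, IPO8 and RANBP6 turned negative, between -0.16 and -0.045, and KPNB1 was at 0.12. After rescaling IPO5 and IPO7 turned positive, at 0.12 and 0.15.

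The 6 exportins that passed the filter were close to equal, with log2 changes between -0.23 and 0.24 and a median of 0.077 that became -0.098 with the trend removed. XPO1, the general exporter for leucine-rich export signals and a drug target in blood cancers, was at 13.8 FPKM with shNC and 16.4 FPKM with shKIAA1429. XPOT alone made up 54.8% and 56.2% of the summed exportin level. XPO5, which exports precursors of miRNAs, was at 10.1 and 10.5 FPKM. XPO4 was at 4.83 and 5.66 FPKM. XPO6, the exporter of actin, was at 16.7 and 15.5 FPKM, and XPO7 at 14.8 and 12.5 FPKM. With the trend removed XPO1, XPO4 and XPOT turned negative, at -0.031, -0.10 and -0.093, and after rescaling XPO6 turned positive, at 0.072. Of the Ran-binding proteins, RANBP1, which helps Ran hydrolyse GTP in the cytoplasm, was at 17.8 and 21.9 FPKM, a change of 0.28. RANBP3, a cofactor of XPO1, was at 6.37 and 6.55 FPKM. The scaffold proteins RANBP9 and RANBP10 were at 11.3 and 12.6 FPKM and at 4.86 and 4.92 FPKM.

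Among the mRNA export genes most of the THO complex was nearly equal on the deposited scale, while ALYREF, NXT1 and THOC2 were higher. Of the 6 THO subunits, THOC1, THOC5, THOC6 and THOC7 had log2 changes between 0.0048 and 0.0081. Their levels with shNC and shKIAA1429 were 3.33 and 3.35 FPKM for THOC1, and 25.4 and 25.5 FPKM for THOC7. THOC5 was at 7.03 and 7.07 FPKM, and THOC6 at 15.3 and 15.4 FPKM. THOC3 was slightly lower, at 4.11 and 3.58 FPKM. THOC2, the largest subunit and the scaffold of the complex, was at 5.89 and 8.56 FPKM, a change of 0.47 that became 0.19 with the trend removed. ALYREF, the adaptor that the complex loads onto mRNA, was at 28.6 and 39.1 FPKM, a change of 0.44. NXF1 was at 7.58 and 8.27 FPKM, so the ratio of NXF1 to NXT1 was 0.755 with shNC and 0.552 with shKIAA1429. The group median was 0.0081, and it was -0.050 after centring, which put the 4 nearly equal THO subunits between -0.053 and -0.050. Rescaling put these 4 between 0.175 and 0.188 and the group median at 0.19, where the median of all genes tested was 0.24.

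KIAA1429 directs m6A to the end of the coding sequence and the start of the 3′ UTR, and GGACT is the commonest form of the m6A motif in cDNA letters. m6A itself was not measured in these libraries. GGACT stood within 200 bases of the stop codon in 22 of the 58 longest coding transcripts (37.9%) and in 37.5% of all genes tested with an annotated stop codon. Members that held it had a median log2 change of 0.28, and those that did not had 0.079. Over all genes tested the corresponding medians were 0.049 and 0.062. For these medians the trend of GC content and length was left in. With it removed, the holders IPO5, IPO8, NUP37, THOC3, XPO6, XPO7 and XPOT were negative, between -0.25 and -0.090. The other holders were positive, between 0.047 and 0.61. A link between the motif and the change was not tested. As examples, not a full set, matches of NXT1, TNPO2, NUP107, NUP153 and NUP85, which had a change above 0.4, are shown with 10 bases on each side, where the window lies within 1 exon of GENCODE 29 (GRCh38), and capitals mark GGACT. They are at chr20:23354352-23354376 and chr20:23354439-23354463 for NXT1, chr19:12701132-12701156 for TNPO2, chr12:68742417-68742441 for NUP107, chr6:17615978-17616002 for NUP153 and chr17:75235137-75235161 for NUP85.
NXT1, coding sequence: acaaacaacgGGACTtcaaccagaa
NXT1, coding sequence: tccgcttccaGGACTgggccagcta
NUP107, coding sequence: cctagaccagGGACTtgacccatta
NUP85, coding sequence: ggtgtctggaGGACTtgacgtcaag
TNPO2, 3′ UTR: ggagtgagtgGGACTcaaatccaga
NUP153, 3′ UTR: atctgcctaaGGACTtctttaattt
TNPO2 and NUP153 lie on the minus strand, and all windows are given in the direction of the mRNA. THOC2 held 1 match and TNPO2 held 1 more than shown, each in a window that crosses an exon junction. KPNA3, at a change of 0.40, held 1 match in the 3′ UTR that is not shown. NUP58, KPNA4, KPNA1 and ALYREF, which were also higher by more than 0.4, held no GGACT in this window. Of the genes that were lower with shKIAA1429, IPO5, NUP37, THOC3, XPO6 and XPO7 held it and the others did not. The changes of these holders lay between -0.23 and -0.0027.

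Other genes of the same routes, which the name rule does not reach, were set beside them. Of 38 such genes 29 were higher (76.3%, against 57.3% of all genes tested), with a median log2 change of 0.15. At the limit of 0.5, 3 were higher and 3 were lower, 7.89% each, where 9.92% and 6.12% of all genes tested were. RAN itself, the GTPase that sets the direction of transport, was at 50.7 FPKM with shNC and 51.1 FPKM with shKIAA1429, and all 5 Ran cycle genes had changes between 0.011 and 0.16, of which RAN and RCC1 turned negative after centring, at -0.047 and -0.041. CSE1L, the exportin that returns importin alpha to the cytoplasm, was at 25.7 and 35.8 FPKM, a change of 0.46. The genes higher by more than 0.5 were the pore membrane gene NDC1, the ribosome export adaptor NMD3 and the helicase DDX19A of mRNA export. Those lower by more than 0.5 were all of the mRNA export list, POLDIP3 at 15.1 and 7.73 FPKM (-0.88), FYTTD1 at 2.77 and 1.53 FPKM (-0.57) and the cap-binding gene NCBP2 at 8.34 and 5.55 FPKM (-0.51). NUP42, listed under its older symbol NUPL2, was at 7.59 and 8.21 FPKM.

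**Figure D4:**
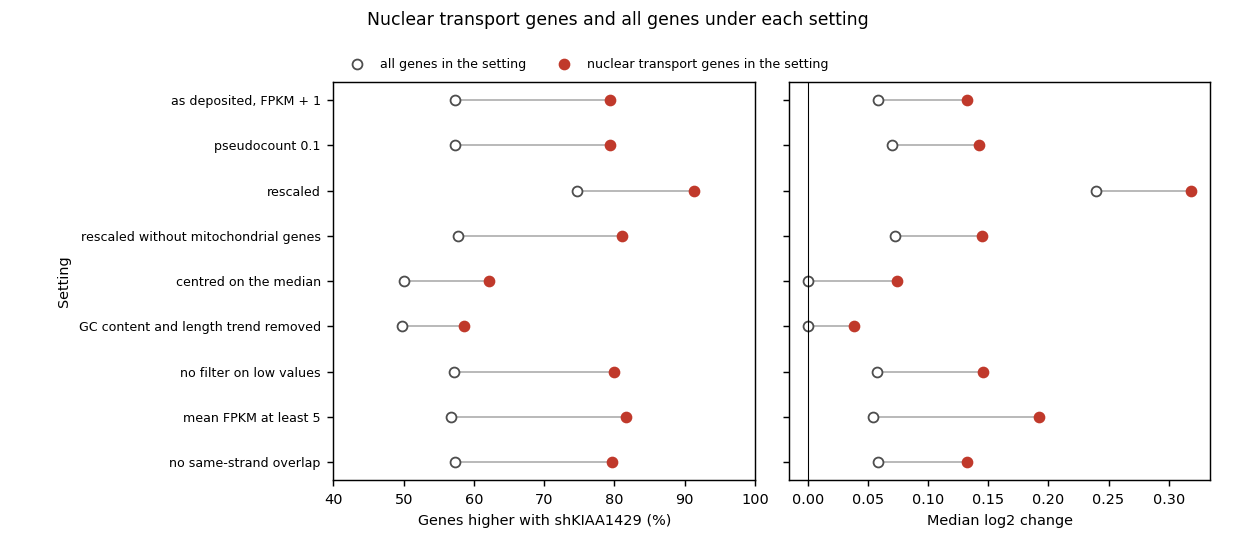
Share of genes higher with shKIAA1429 (left, %) and median log2 change (right) for the nuclear transport genes (red) and all genes (open) under each setting. The red points lie to the right of the open points in every setting drawn, and the gap in the share is smallest, 58.6% against 49.8%, with the trend of GC content and length removed.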

How the data were processed

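RNA-seq of 2 libraries of ACHN cells was analysed, 1 per group, with groups taken from the sample labels. Per the submitters' processing notes, cutadapt 1.9, HISAT2 2.0.4 and StringTie 1.3.4d were among the tools, and DESeq2 and edgeR are also named there. The authors deposited FPKM values for 12014 protein-coding genes, none of which is below 0.5 FPKM in both libraries. Gene positions are those of GRCh37. Genes without a row were not analysed here, and some items are not reported here.

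Members were selected by symbol. The log2 ratio of (FPKM + 1) was computed for all genes, 10708 of which had a mean FPKM of at least 1. Genes were described in role groups, with members past 0.5, group extremes, abundant members and paralogs named, and with a list of 38 other transport genes. The members and lists were chosen with earlier results of these data known. With 1 library per group no test was run. Transcript length, GC content and stop codons were those of the longest coding transcript in GENCODE 29, matched for 10648 genes by identifier. The trend was the median of 10 by 10 bins. Only the log2 ratio was run on simulated data. The changes put in were set beyond the limit on the same scale, so their recovery was fixed in advance. The other steps were not tested in this way. Python 3.11.15, NumPy 2.4.6, pandas 2.3.3 and matplotlib 3.10.9 were used.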

Additional observations from a re-analysis of the deposited data

How the results depend on the processing

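A count was taken as moved past 1.5 times and a median past 0.1. No nuclear transport gene passed 1.5 under any setting tried, or 1 on the scale as deposited. With a pseudocount of 0.1 there were 5 genes higher by more than 0.5 (13.9% of all genes), and the NUP62CL value was 0.47. Rescaling to a sum of 1000000 gave 19 such genes of the 58, a larger share than the 23.9% of all genes. It also gave 5 lower genes, and medians of 0.32 for the nuclear transport genes and 0.34 for the other transport genes. By role the medians were then 0.35 (outer ring), 0.49 (inner ring), 0.54 (channel), 0.24 (cytoplasmic filaments), 0.49 (basket), 0.079 (NUP210), 0.59 (NUP62CL), 0.61 (importin alpha), 0.24 (importin beta), 0.26 (exportins), 0.27 (Ran cofactors) and 0.19 (mRNA export). The median of all genes moved with it, to 0.24, and the same rescaling without mitochondrial genes gave 5 genes past 0.5, a median of all genes of 0.073 and 0.46 for NUP62CL. Centring gave 22 lower genes. With the trend of GC content and length removed there were 23 lower genes, and medians of -0.0086 (outer ring), 0.15 (inner ring), 0.13 (basket), 0.17 (NUP62CL), 0.22 (importin alpha), -0.094 (importin beta) and -0.098 (exportins). A mean FPKM of at least 5, or leaving out genes that overlap a listed gene on the same strand, left 0 genes lower by more than 0.5, since IPO4 was then not counted. Of the 58 genes 7 changed from lower to higher after rescaling, 10 from higher to lower after centring and 11 from higher to lower with the trend removed. Beyond these steps' own construction the cause was not tested. No paired analysis was possible because either group holds 1 library.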
